A study of Danio rerio with 6 samples.

Results

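The Hox genes were followed in a zebrafish melanoma line that no longer stops growing under a BRAF inhibitor, ZMELR1, and in the line it was grown from, ZMEL1. A gene was taken as a Hox gene if its name, written in lower case and without any copy-number ending, began with hox, a cluster letter from a to d and a digit. Of the 27126 gene names in the deposited count table, 48 did so. ZMEL1 was grown from the melanoma of 1 fish that carried human BRAFV600E under the mitfa promoter, lacked p53 (p53-/-) and mitfa (mitfa-/-), and had mitfa given back, with GFP, by the miniCoopR vector. Both lines therefore share these alleles, and each stands for a single tumor. ZMELR1 was obtained from ZMEL1 by months of growth in a BRAF inhibitor. Its 3 libraries came from cells kept in 1 µM PLX4032 (vemurafenib), whereas the 3 ZMEL1 libraries came from cells kept in DMSO, both at 28.5 °C in medium with 10% fetal calf serum. The history of selection and the drug in the medium cannot be told apart in this design. The study describes the 3 libraries of a line as biological replicates, from cells not yet confluent in their usual medium. How the replicate cultures were separated is not given in the sources used here, so the p-values measure only the spread between these libraries.

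Hox genes encode homeodomain transcription factors that lie in clusters, and their order along a cluster matches the order along the body axis in which they are used. Low-numbered paralog groups act in the hindbrain and pharyngeal arches, middle groups in the trunk, and high-numbered groups in the tail and in the distal parts of fins and limbs. Cells commonly keep part of the Hox pattern of the place they came from, held silent by Polycomb proteins and open by Trithorax proteins. Zebrafish carry an extra round of genome duplication, so that most clusters exist as an a copy and a b copy, and they have lost many individual genes since. The 48 names covered 7 clusters, with 6 genes of hoxaa, 5 of hoxab, 11 of hoxba, 4 of hoxbb, 11 of hoxca, 4 of hoxcb and 7 of hoxda. The gene hoxa4a was not analysed here.

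The libraries held 42591832 to 83741911 counts in ZMELR1 and 62973267 to 67904002 in ZMEL1. Hox genes made up 0.0709% to 0.0874% of all counts in ZMELR1 and 0.0603% to 0.0760% in ZMEL1. Levels are given as CPM, counts scaled to a common library total and adjusted by trimmed-mean (TMM) factors. CPM does not correct for gene length, so levels are compared between lines and not between genes. The floor of 3 counts corresponded to 0.0330 to 0.0743 CPM, depending on the library, and covers counting error only. Replicate 3 of both lines stood apart from the rest. On the second principal component of log2 CPM (25.9% of the variance) ZMELR1 replicate 3 lay at -56.7 and ZMEL1 replicate 3 at -48.7, against 5.64 to 50.0 for the other 4 libraries. The regulators of pigment cells were detected at high levels in both lines, with mitfa at a mean of 891 CPM in ZMELR1 and 519 CPM in ZMEL1 and sox10 at 588 CPM in ZMELR1 and 417 CPM in ZMEL1. The mitfa reads may include the miniCoopR copy, and their origin was not examined. Of the other pigment cell markers, tfap2a had 591 CPM in ZMELR1 and 298 CPM in ZMEL1, and kita 205 CPM in ZMELR1 and 98.2 CPM in ZMEL1. By contrast, slc45a2 had 0.225 CPM in ZMELR1 and 0.0599 CPM in ZMEL1. Levels of dct were uneven, at 1.13, 1.41 and 25.8 CPM in ZMELR1 and 1.97, 2.97 and 8.76 CPM in ZMEL1. The summed level of 10 pigment cell markers was 2003 to 2526 CPM in ZMELR1 and 1303 to 1415 CPM in ZMEL1, a difference that moves with the lines, and its part in the Hox results was not tested. Of the 9 of these markers tested by edgeR, tyrp1b and kita were called higher in ZMELR1, against 3.62% of all genes tested. The marker oca2 was called lower, against 2.68%, at a mean of 0.881 CPM in ZMELR1 and 4.78 CPM in ZMEL1. At an unadjusted p under 0.05, 7 were higher and 1 lower, and the median log2 fold change was 1.03. DESeq2 called 5 higher and 1 lower, limma-voom 2 and 1, and edgeR with the replicate number as a block 7 and 1. Among the markers of other cell types, the 10 fibroblast markers summed to 77.0 to 109 CPM in ZMELR1 and 81.6 to 112 CPM in ZMEL1, with col1a1a and lum below 1 CPM in both and 0 of 7 tested markers called by edgeR, 3 of them at an unadjusted p under 0.05. Within that sum, postnb had 67.5 CPM in ZMELR1 and 70.9 CPM in ZMEL1, dcn 6.86 CPM in ZMELR1 and 15.4 CPM in ZMEL1, and twist1a 9.86 CPM in ZMELR1 and 1.86 CPM in ZMEL1. DESeq2 called 1 fibroblast marker higher and 1 lower, and limma-voom called 0. The 6 epithelial markers summed to 5.48 to 20.1 CPM in ZMELR1 and 17.1 to 30.6 CPM in ZMEL1. Of the 4 tested, 1 was called lower by edgeR, krt4, at a mean of 1.53 CPM in ZMELR1 and 6.74 CPM in ZMEL1. At an unadjusted p under 0.05, 2 were lower and 0 higher, as with DESeq2 and with the block, and limma-voom called 1 lower. Mean krt5 was 1.22 CPM in ZMELR1 and 5.27 CPM in ZMEL1 (edgeR adjusted p = 0.0536), whereas tp63 was higher in ZMELR1 and not called. Muscle, endothelial and leukocyte markers summed to at most 3.57 CPM in any library, with myog at 0 in all of them, although myod1 (0.0400 CPM in ZMELR1 and 0.197 CPM in ZMEL1) and fli1a (0.199 CPM in ZMELR1 and 1.03 CPM in ZMEL1) were called lower in ZMELR1. The neuron markers summed to 2.95 to 8.55 CPM in ZMELR1 and 4.46 to 11.2 CPM in ZMEL1. The epithelial sums of the lines overlapped, with ZMELR1 replicate 3 at 20.1 CPM above ZMEL1 replicates 1 and 2 at 17.1 and 18.8 CPM. Of that 20.1 CPM, cdh1 made up 16.4 CPM. In ZMELR1 replicates 1 and 2 cdh1 had 2.52 and 2.33 CPM, and in ZMEL1 7.16 to 14.7 CPM. The libraries of the lines did not overlap for krt4 or krt5. The part of the epithelial markers in the Hox results was not tested. In bulk RNA, fewer cells that use a gene and less of its RNA per cell cannot be told apart, and this holds for every level below.

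A gene was called on in a line if its mean over the 3 libraries was at least 1 CPM. By this rule 29 of the 48 Hox genes were on in ZMELR1 and 24 in ZMEL1, of which 23 were on in both lines and 18 were off in both. Over all 27126 names, 48.3% were on in ZMELR1 and 48.1% in ZMEL1. The genes on in ZMELR1 only were hoxa2b, hoxa9a, hoxa13a, hoxb7a, hoxc1a and hoxc5a, and the only gene on in ZMEL1 alone was hoxa1a. Over all names, 1.81% were on in ZMELR1 only and 1.55% in ZMEL1 only. In ZMELR1 at least 1 gene of all 13 paralog groups was on, against 10 groups in ZMEL1, where groups 2, 5 and 7 had none. The difference in groups changed with the limit, with 13 groups in both lines at 0.5 CPM, 9 in both at 2 CPM, and 10 in ZMELR1 against 9 in ZMEL1 where every library had to reach 1 CPM. Of the 7 clusters, 6 had a gene on in ZMELR1 and 5 in ZMEL1, the sixth being hoxba through hoxb7a alone. This count also changed with the limit, with 7 clusters in ZMELR1 against 6 in ZMEL1 at 0.5 CPM and 5 in both at 2 CPM. It was also 5 in both where every library had to reach 1 CPM, without ZMELR1 replicate 1 and without ZMELR1 replicate 3.

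**Figure D1:**
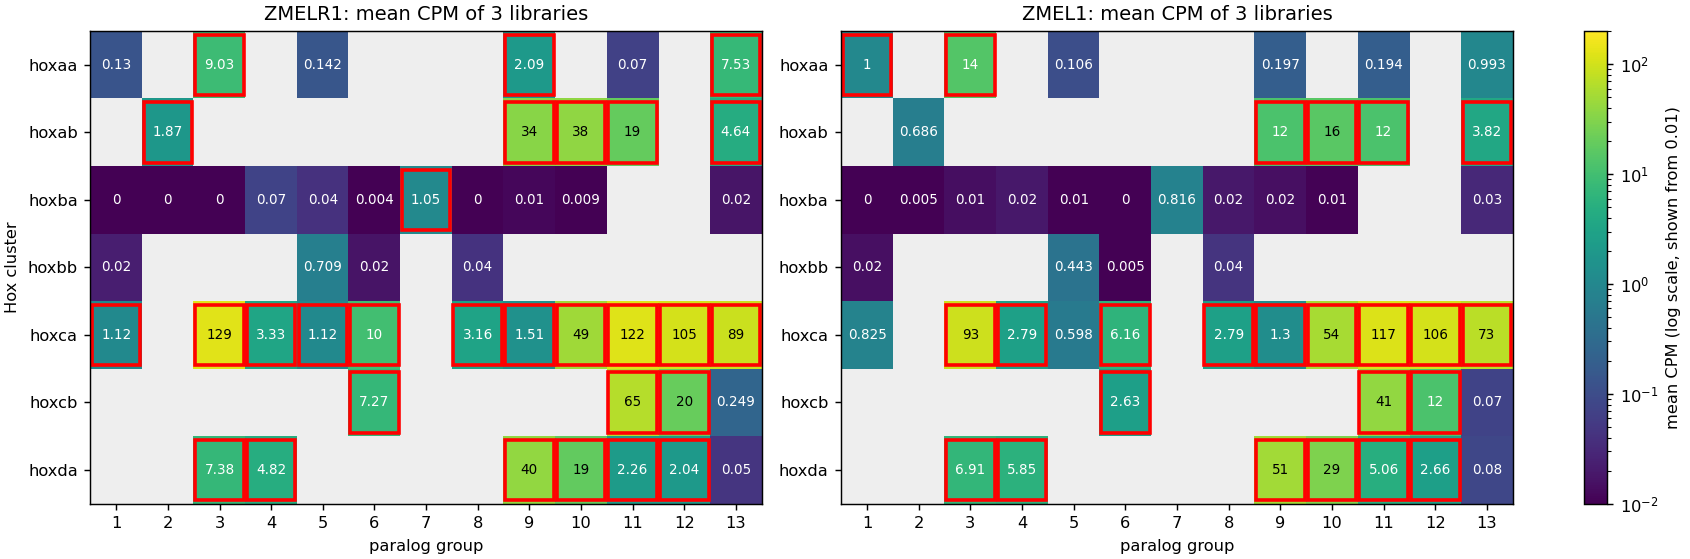
Mean CPM of each Hox gene by cluster (rows) and paralog group (columns) in ZMELR1 (left) and ZMEL1 (right), on a log color scale. Red frames mark genes on, with a mean of at least 1 CPM (29 in ZMELR1 and 24 in ZMEL1), and grey marks positions with no gene in the table. The hoxba and hoxbb rows are dark in both lines apart from hoxb7a and hoxb5b, and the hoxca row is framed from end to end in ZMELR1.

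Most of the on genes lay in the hoxab, hoxca, hoxcb and hoxda clusters and in the posterior groups. The limit of 1 CPM takes no account of transcript length, so the counts by cluster and group also depend on it. In hoxca all 11 genes were on in ZMELR1 and 9 in ZMEL1, and in hoxda 6 of 7 genes were on in both lines. In hoxab all 5 genes were on in ZMELR1 and 4 in ZMEL1, and in hoxcb 3 of 4 in both. By contrast, hoxba had 1 of 11 genes on in ZMELR1 and 0 in ZMEL1, and hoxbb had 0 of 4 in both. Among the posterior groups 9 to 13, 17 of 23 genes were on in ZMELR1 and 15 in ZMEL1. Of the anterior groups 1 to 3, 5 of 10 genes were on in ZMELR1 and 4 in ZMEL1. Of the central groups 4 to 8, 7 of 15 were on in ZMELR1 and 5 in ZMEL1. Genes of groups 9 to 13 held 76.1% to 78.3% of the Hox counts in ZMELR1 and 76.5% to 82.4% in ZMEL1, shares of reads that also reflect the lengths of the transcripts.

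Several genes lay close to the limit of 1 CPM. In ZMELR1 the genes just inside were hoxb7a at 1.05 CPM, hoxc1a at 1.12 CPM and hoxc5a at 1.12 CPM, and the nearest outside was hoxb5b at 0.709 CPM. In ZMEL1 hoxa1a lay just inside at 1.00 CPM and hoxa13a just outside at 0.993 CPM, with hoxc1a at 0.825 CPM and hoxb7a at 0.816 CPM below it. At 0.5 CPM, 30 genes were on in ZMELR1 and 29 in ZMEL1, and at 2 CPM 24 were on in ZMELR1 and 22 in ZMEL1. With a limit of 0.5 CPM the genes on in ZMELR1 only were hoxa9a and hoxb5b, and with 2 CPM they were hoxa9a and hoxa13a. Of these genes, hoxa9a was on in ZMELR1 only at each of the 3 limits.

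The lines were then compared gene by gene by the quasi-likelihood test of edgeR. Low counts were filtered out first, which left 16589 genes, and p-values were adjusted over all of these by the method of Benjamini and Hochberg. Of the 48 Hox genes, 32 passed the filter, and a gene was called at an adjusted p under 0.05. Called higher in ZMELR1 were 4 Hox genes, hoxa9a, hoxa9b, hoxa10b and hoxa13a, against 3.62% of all genes tested. Called lower were 0 Hox genes, against 2.68% of all genes tested. At an unadjusted p under 0.05 there were 15 of the 32 Hox genes, 4 of them lower (hoxa1a, hoxa3a, hoxd10a and hoxd11a). Beside these stood 4032 of all 16589 genes tested, 1839 of them lower. DESeq2 called 6 Hox genes higher, the same 4 with hoxa2b and hoxc6b, and 1 lower (hoxa1a), against 6.07% of its genes higher and 5.57% lower. With limma-voom the same 4 were called higher and 0 lower, against 3.35% of its genes higher and 2.5% lower. The median log2 fold change was 0.32 over the 32 Hox genes and 0.02 over all genes tested. The fold change was positive for 23 of the 32 Hox genes and for 8595 of all 16589 genes tested. The libraries of the lines did not overlap for 12 of the 32 Hox genes with ZMELR1 higher (17.0% of all genes tested) and for 2 with ZMELR1 lower (14.5% of all genes tested).

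All 4 called genes belong to paralog groups 9, 10 and 13 and to the A clusters. The homeobox genes of group 9 pattern the posterior trunk, and HOXA9 is known in human leukemia for holding blood progenitors in an immature state. In ZMELR1 the level of hoxa9a was 2.58, 2.27 and 1.41 CPM in replicates 1, 2 and 3, against 0.204, 0.157 and 0.229 CPM in ZMEL1. The lowest ZMELR1 library was thus above the highest ZMEL1 library, and the ZMEL1 values rested on 12, 11 and 16 counts. The log2 fold change of hoxa9a was 3.41 ± 0.38 (SE; 10.6-fold in mean CPM; adjusted p = 0.00437). The call of hoxa9a held in 17 of 17 alternative fits, with adjusted p between 3.6e-13 and 0.0285.

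The second large change was in hoxa13a, which with its copy hoxa13b shapes the distal fin skeleton in zebrafish. Its level was 7.44, 6.83 and 8.32 CPM in the ZMELR1 libraries, against 1.31, 1.07 and 0.600 CPM in the ZMEL1 libraries. The groups did not overlap. The log2 fold change was 2.92 ± 0.34 (SE; 7.58-fold in mean CPM; adjusted p = 0.00497), and hoxa13a was called in 17 of 17 alternative fits, with adjusted p between 1.3e-14 and 0.0306. Replicate 3 was the highest library of ZMELR1 and the lowest of ZMEL1 for this gene, while for hoxa9a it was the lowest of ZMELR1 and the highest of ZMEL1.

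In the sister cluster hoxab, hoxa9b had 42.6, 37.6 and 21.6 CPM in ZMELR1, against 12.2, 10.1 and 14.6 CPM in ZMEL1. The log2 fold change of hoxa9b was 1.46 ± 0.29 (SE, adjusted p = 0.0319). Its neighbor hoxa10b, the remaining group 10 gene of the A clusters, had 43.6, 41.4 and 28.8 CPM in ZMELR1, against 15.3, 11.4 and 20.7 CPM in ZMEL1. The log2 fold change of hoxa10b was 1.27 ± 0.27 (SE, adjusted p = 0.0415). For both genes replicate 3 was the lowest ZMELR1 library and the highest ZMEL1 library, and no libraries overlapped. Unlike the calls of hoxa9a and hoxa13a, these did not hold with every library left out, while the log2 fold changes stayed between 1.27 and 1.71 for hoxa9b and between 1.06 and 1.47 for hoxa10b. When 1 library was left out, hoxa9b and hoxa10b stayed called only without ZMELR1 replicate 3. Without ZMELR1 replicate 1 the adjusted p was 0.105 for hoxa9b and 0.131 for hoxa10b, without ZMELR1 replicate 2 it was 0.0762 for hoxa9b and 0.0941 for hoxa10b, and without ZMEL1 replicate 1 it was 0.115 for hoxa9b and 0.144 for hoxa10b. Without ZMEL1 replicate 2 it was 0.106 for hoxa9b and 0.109 for hoxa10b, and without ZMEL1 replicate 3 it was 0.0716 for hoxa9b and 0.0505 for hoxa10b. In these 5 fits the genes called higher over the whole table numbered 172 to 326, against 600 with all 6 libraries. Over all alternative fits, the adjusted p lay between 9.0e-08 and 0.115 for hoxa9b and between 3.6e-07 and 0.144 for hoxa10b.

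**Figure D2:**
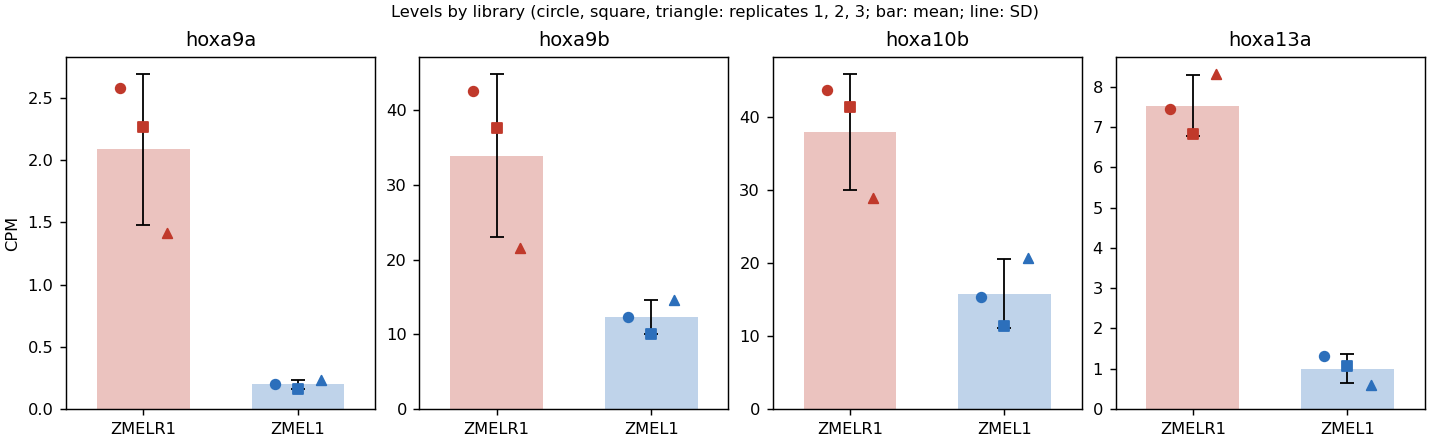
CPM of the 4 called Hox genes in each library, with ZMELR1 left and ZMEL1 right in each panel. Bars are means, lines are SD (n = 3 each), and symbols are replicates 1 (circle), 2 (square) and 3 (triangle). No ZMEL1 library reaches the lowest ZMELR1 library of its gene, and in the hoxa9a, hoxa9b and hoxa10b panels the triangles of the lines lie nearest to each other.

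Libraries with the same replicate number deviated together from the means of their lines, and the fit with the replicate number as a block called more genes. With the block, 9 Hox genes were called higher, against 12.9% of all genes tested, and 2 lower, against 12.0% of all genes tested. The 4 genes above were among them, with blocked adjusted p of 0.00381 for hoxa9a, 0.00418 for hoxa13a, 0.0226 for hoxa9b and 0.0273 for hoxa10b. Added as higher were hoxa2b, hoxc3a, hoxc6b, hoxc11b and hoxc13b, and as lower hoxa1a and hoxd10a.

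The remaining hoxaa genes went the other way or were near the floor. The gene hoxa1a is a member of paralog group 1, whose genes act in hindbrain patterning in vertebrates. It had 0.103, 0.187 and 0.0990 CPM in ZMELR1, from 6, 17 and 4 counts, against 1.41, 1.31 and 0.286 CPM in ZMEL1. The lines did not overlap, but ZMEL1 replicate 3 was far below the other ZMEL1 libraries. The log2 fold change of hoxa1a was -2.84 ± 0.68 (SE), with an adjusted p of 0.0573, and of 0.00813 with the replicate block. Without ZMEL1 replicate 3 the adjusted p of hoxa1a was 0.0158, and over all alternative fits it lay between 1.3e-05 and 0.165. The level of hoxa3a, whose mouse counterpart is needed for the thymus and parathyroid, was 9.03, 8.54 and 9.51 CPM in ZMELR1, against 15.7, 15.5 and 10.7 CPM in ZMEL1. The lines did not overlap, and the log2 fold change of hoxa3a was -0.63 ± 0.22 (SE, adjusted p = 0.136). The genes hoxa5a and hoxa11a had 0.142 and 0.0670 CPM on average in ZMELR1 and 0.106 and 0.194 CPM in ZMEL1, and were not tested. In the GRCz12tu annotation, of a later genome build than the one used for counting, the spans of hoxa3a and hoxa5a overlap. Whether they overlap in the annotation used for counting was not examined, so their levels are uncertain. Of the 4 hoxaa genes tested, hoxa1a and hoxa3a had negative fold changes and hoxa9a and hoxa13a positive ones. Only the positive ones were called by edgeR without the block. The high-numbered hoxa11a, with low counts, had its lower mean in ZMELR1.

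In hoxab the fold changes of all 5 genes were positive, with a median of 1.27 on the log2 scale, against 0.02 over all genes tested. The gene hoxa2b, which acts in the second pharyngeal arch in zebrafish, had 2.60, 1.60 and 1.41 CPM in ZMELR1, against 0.815, 0.572 and 0.672 CPM in ZMEL1. The lines did not overlap for hoxa2b, and its log2 fold change was 1.45 ± 0.34 (SE), with an adjusted p of 0.0542, and of 0.0151 with the replicate block. Without ZMELR1 replicate 3 its adjusted p was 0.0431, and over all alternative fits it lay between 0.00017 and 0.168. The gene hoxa11b had 22.2, 19.0 and 16.1 CPM in ZMELR1, against 10.8, 8.56 and 16.7 CPM in ZMEL1, so that replicate 3 of the lines overlapped (log2 fold change 0.67 ± 0.28 SE, adjusted p = 0.203). The gene hoxa13b had 5.44, 6.04 and 2.43 CPM in ZMELR1, against 4.57, 3.83 and 3.06 CPM in ZMEL1 (log2 fold change 0.29 ± 0.37 SE, adjusted p = 0.669). The lines overlapped for hoxa13b. Its level thus differed by less than the spread between libraries, whereas its copy hoxa13a was called, and the difference between the copies was not tested. Summed over its genes, hoxab had 116, 106 and 70.4 CPM in ZMELR1, against 43.7, 34.4 and 55.7 CPM in ZMEL1, and it held 9.41% to 14.4% of the Hox counts in ZMELR1 and 6.03% to 7.56% in ZMEL1.

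The hoxca cluster held 62.9% to 65.0% of the Hox counts in ZMELR1 and 65.5% to 71.0% in ZMEL1. None of its 11 genes was called by edgeR without the block, by DESeq2 or by limma-voom, with 2 of them (hoxc3a and hoxc6a) at an unadjusted p under 0.05. Its posterior genes act in the tail and, for the mouse counterpart of hoxc13a, in hair and nails. The gene hoxc10a had 53.8, 46.0 and 46.9 CPM in ZMELR1, against 58.5, 48.3 and 54.6 CPM in ZMEL1. The gene hoxc11a had 131, 119 and 117 CPM in ZMELR1, against 135, 117 and 99.99 CPM in ZMEL1. The lines overlapped for both genes, at log2 fold changes of -0.14 ± 0.15 for hoxc10a and 0.06 ± 0.16 for hoxc11a (SE, adjusted p = 0.622 and 0.849). The gene hoxc12a had 108, 98.5 and 107 CPM in ZMELR1, against 90.6, 81.3 and 147 CPM in ZMEL1. The gene hoxc13a had 113, 79.2 and 75.4 CPM in ZMELR1, against 81.3, 55.1 and 81.7 CPM in ZMEL1. These also overlapped, with ZMEL1 replicate 3 the highest of all 6 libraries for hoxc12a, and their adjusted p values were 0.964 for hoxc12a and 0.470 for hoxc13a.

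Toward the anterior end of hoxca, hoxc3a had 155, 116 and 115 CPM in ZMELR1, against 108, 86.6 and 85.5 CPM in ZMEL1. The lines did not overlap, and the log2 fold change of hoxc3a was 0.46 ± 0.19 (SE), with an adjusted p of 0.184, and of 0.0270 with the replicate block. In the GRCz12tu annotation the span of hoxc3a covers hoxc4a, hoxc5a, hoxc6a, hoxc8a and hoxc9a. These spans run from the start to the end of a gene, introns included. Only reads in stretches counted for several genes cannot be assigned by position. Whether these 6 genes share such stretches in the annotation used for counting was not examined, so their levels are uncertain. The gene hoxc4a had 2.99, 3.39 and 3.61 CPM in ZMELR1, against 1.95, 3.16 and 3.26 CPM in ZMEL1. The gene hoxc5a had 0.873, 1.32 and 1.16 CPM in ZMELR1, against 0.323, 0.872 and 0.600 CPM in ZMEL1. For hoxc5a the lines only just failed to overlap, at 0.873 CPM in the lowest ZMELR1 library and 0.872 CPM in the highest ZMEL1 library (log2 fold change 0.90 ± 0.40 SE, adjusted p = 0.222). The gene hoxc6a had 8.69, 7.17 and 14.4 CPM in ZMELR1, against 5.79, 5.89 and 6.79 CPM in ZMEL1. This gene, of the group that marks the thoracic level in the mouse, also had no overlap, with ZMELR1 replicate 3 standing above the other ZMELR1 libraries (log2 fold change 0.71 ± 0.30 SE, adjusted p = 0.198). The gene hoxc8a had 2.93, 2.80 and 3.76 CPM in ZMELR1, against 2.75, 3.03 and 2.59 CPM in ZMEL1. The gene hoxc9a had 1.68, 1.32 and 1.53 CPM in ZMELR1, against 1.43, 1.34 and 1.14 CPM in ZMEL1. At the end of the cluster hoxc1a had 1.16, 1.34 and 0.842 CPM in ZMELR1, against 0.731, 1.04 and 0.700 CPM in ZMEL1. The lines overlapped for hoxc4a, hoxc8a, hoxc9a and hoxc1a, and their adjusted p lay between 0.417 and 0.696.

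**Figure D3:**
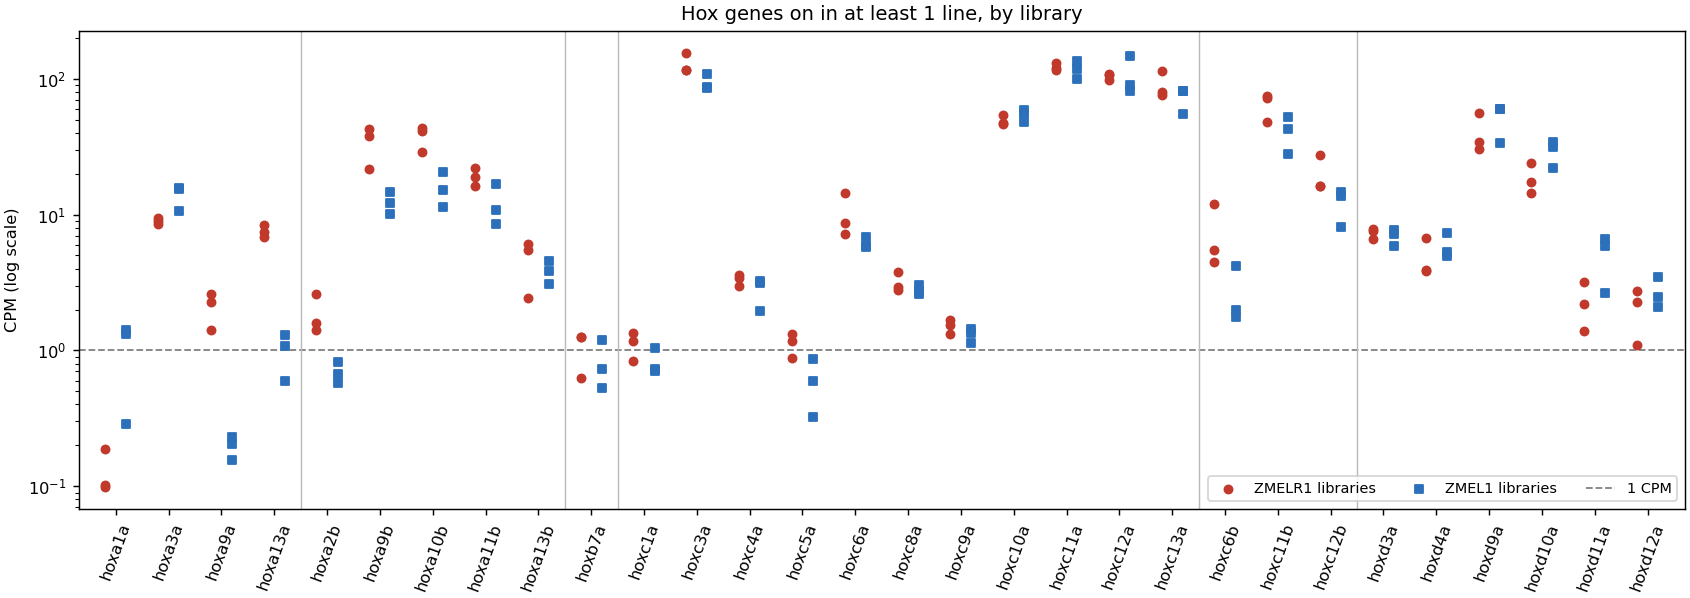
CPM (log axis) in each library for the 30 Hox genes on in at least 1 line, ordered by cluster (grey lines) and paralog group, with ZMELR1 as red circles to the left of ZMEL1 as blue squares. The dashed line marks 1 CPM. The libraries of the lines stand apart for hoxa9a, hoxa13a, hoxa9b and hoxa10b and intermingle for hoxc10a, hoxc11a and hoxc12a.

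In hoxcb, the shorter copy, all 4 fold changes were positive, with a median of 1.09 on the log2 scale, and 0 genes were called by edgeR without the block or by limma-voom, and 1, hoxc6b, by DESeq2. At an unadjusted p under 0.05 were hoxc6b, hoxc11b and hoxc13b. The gene hoxc6b had 5.46, 4.47 and 11.9 CPM in ZMELR1, against 1.75, 1.97 and 4.16 CPM in ZMEL1. Replicate 3 was the highest library of both lines, and no libraries overlapped. The log2 fold change of hoxc6b was 1.46 ± 0.49 (SE), with an adjusted p of 0.130, and of 0.00715 with the replicate block. The gene hoxc11b had 72.4, 48.4 and 74.8 CPM in ZMELR1, against 42.4, 27.9 and 52.4 CPM in ZMEL1. In both lines replicate 2 was the lowest for hoxc11b, and the lines overlapped. The log2 fold change of hoxc11b was 0.67 ± 0.28 (SE), with an adjusted p of 0.192, and of 0.0137 with the replicate block. The gene hoxc12b had 27.6, 16.2 and 16.4 CPM in ZMELR1, against 13.7, 8.15 and 14.8 CPM in ZMEL1, with no overlap (log2 fold change 0.72 ± 0.31 SE, adjusted p = 0.215). The gene hoxc13b, off in both lines, had 14, 19 and 12 counts in ZMELR1, against 2, 7 and 6 in ZMEL1, an adjusted p of 0.0674, and of 0.0440 with the replicate block.

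In hoxda the fold changes were negative for 5 of the 6 tested genes, with a median of -0.36 on the log2 scale, and the difference from the other clusters was not tested. None of them was called by edgeR without the block, by DESeq2 or by limma-voom, with hoxd10a and hoxd11a at an unadjusted p under 0.05. Genes of this cluster pattern the distal limb in the mouse. The gene hoxd10a had 24.0, 17.3 and 14.5 CPM in ZMELR1, against 34.3, 21.9 and 31.3 CPM in ZMEL1. The lines overlapped, and the log2 fold change of hoxd10a was -0.65 ± 0.26 (SE), with an adjusted p of 0.180, and of 0.0473 with the replicate block. The gene hoxd11a had 3.18, 2.21 and 1.39 CPM in ZMELR1, against 5.86, 2.66 and 6.65 CPM in ZMEL1 (log2 fold change -1.15 ± 0.44 SE, adjusted p = 0.169). Here too 1 ZMEL1 library, replicate 2, lay within the range of ZMELR1. The gene hoxd9a had 56.0, 30.5 and 34.0 CPM in ZMELR1, against 59.7, 33.6 and 60.2 CPM in ZMEL1. The gene hoxd12a had 2.74, 2.28 and 1.09 CPM in ZMELR1, against 3.45, 2.07 and 2.47 CPM in ZMEL1. Toward the anterior end hoxd3a had 7.63, 6.65 and 7.87 CPM in ZMELR1, against 7.66, 7.19 and 5.89 CPM in ZMEL1. The lines overlapped for these 3 genes. The gene hoxd4a had 3.88, 3.85 and 6.73 CPM in ZMELR1, against 5.28, 4.92 and 7.35 CPM in ZMEL1, with replicate 3 highest in both lines. The GRCz12tu spans of hoxd3a and hoxd4a overlap, and the adjusted p of hoxd3a, hoxd4a, hoxd9a and hoxd12a lay between 0.530 and 0.816. The most posterior gene, hoxd13a, had 2 to 5 counts in ZMELR1 libraries and 3 to 8 counts in ZMEL1 libraries.

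The B clusters were off in both lines apart from hoxb7a. This gene had 1.25, 0.628 and 1.26 CPM in ZMELR1, against 1.19, 0.729 and 0.529 CPM in ZMEL1. The lines overlapped (log2 fold change 0.34 ± 0.43 SE, adjusted p = 0.658). In hoxbb, hoxb5b had 0.565, 0.573 and 0.990 CPM in ZMELR1, against 0.442, 0.457 and 0.429 CPM in ZMEL1. It did not overlap between lines, but it was not called (log2 fold change 0.65 ± 0.33 SE, adjusted p = 0.279), and its GRCz12tu span overlaps that of hoxb1b. The other 13 genes of the B clusters had at most 6 counts in any library. Among them hoxb1a, needed for facial motor neurons of the hindbrain in zebrafish, had 0 counts in all 6 libraries, which allows a level of up to 0.0330 to 0.0743 CPM per library. The GRCz12tu span of hoxb3a overlaps hoxb4a, hoxb5a and hoxb6a, and that of hoxb1b also overlaps hoxb6b. Whether these genes overlap in the annotation used for counting was not examined, so their levels are uncertain.

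**Figure D4:**
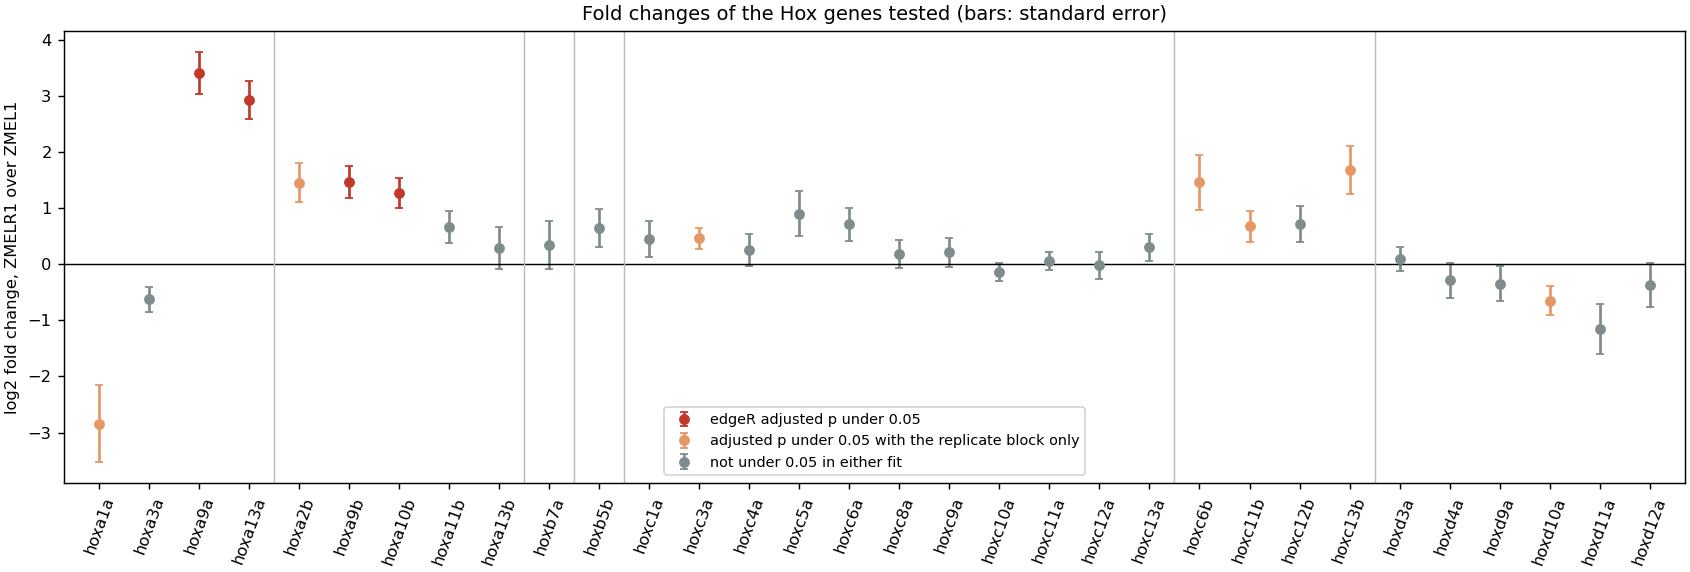
Log2 fold change (ZMELR1 over ZMEL1) of the 32 Hox genes tested, ordered by cluster (grey lines) and paralog group. Points are edgeR estimates, bars are SE, and colors show whether the adjusted p was under 0.05 without the block (4 genes), with the replicate block only (7 genes) or in neither. The hoxab and hoxcb genes all lie above 0, and 5 of the 6 hoxda genes lie below it. Of the tested hoxaa genes, hoxa1a and hoxa3a lie below 0 and hoxa9a and hoxa13a above.

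Proteins known to act with or on Hox genes were read from 5 lists. Their edgeR calls stand against the same shares of all genes tested as above (3.62% called higher and 2.68% lower, and 12.9% and 12.0% with the block). Their calls by DESeq2 and limma-voom stand against the shares given above for those tools. Their counts at an unadjusted p under 0.05 stand against 4032 of all 16589 genes tested, 1839 of them lower. The TALE-class cofactors (Pbx, Meis and Prep/Pknox proteins, listed here with Tgif1), which bind DNA together with Hox proteins, had 0 of 9 tested genes called in either direction by edgeR, with 0 at an unadjusted p under 0.05 and 0 by DESeq2 or limma-voom. With the block 1, pbx2, was called higher (adjusted p = 0.0437). Their median log2 fold change was 0.29. Several were present in both lines, among them pbx4 at a mean of 69.2 CPM in ZMELR1 and 56.4 CPM in ZMEL1, and pbx2 at 62.4 CPM in ZMELR1 and 47.7 CPM in ZMEL1. Of the Polycomb genes, 1 of 37 was called higher and 1 lower by edgeR, with 6 higher and 4 lower at an unadjusted p under 0.05. DESeq2 called 4 higher and 3 lower, and limma-voom 1 higher and 0 lower. The genes called by edgeR encode both forms of the enzyme that places the repressive mark on lysine 27 of histone H3. The gene ezh1 had a mean of 17.4 CPM in ZMELR1 and 5.97 CPM in ZMEL1 (log2 fold change 1.54, adjusted p = 0.0212). It was no longer called without ZMELR1 replicate 1 or without any 1 of the ZMEL1 libraries, at adjusted p of up to 0.0871. The gene ezh2 had a mean of 33.2 CPM in ZMELR1 and 59.1 CPM in ZMEL1 (log2 fold change -0.83, adjusted p = 0.0486), but was called in only 4 of 17 alternative fits and in 0 of the 6 that left out a library, with adjusted p between 1.2e-05 and 0.162 over the 17. With the replicate block 8 Polycomb genes were called higher and 4 lower.

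Of the Trithorax genes and lysine 27 demethylases, 0 of 20 were called in either direction by edgeR, 5 were at an unadjusted p under 0.05, all higher, and DESeq2 and limma-voom called 0. With the block 6 were called higher and 1 lower. Retinoic acid, a vitamin A derivative, sets anterior Hox expression in the embryo through nuclear receptors. In that list 2 of 19 genes were called higher and 0 lower by edgeR, with 5 higher and 2 lower at an unadjusted p under 0.05, 5 higher and 1 lower by DESeq2, and 1 higher and 0 lower by limma-voom. The called genes were crabp2a, which encodes a retinoic acid binding protein, with a mean of 21.6 CPM in ZMELR1 and 1.96 CPM in ZMEL1 (log2 fold change 3.46, adjusted p = 0.0389), and the retinoid X receptor gene rxraa, with 52.4 CPM in ZMELR1 and 22.6 CPM in ZMEL1 (log2 fold change 1.21, adjusted p = 0.0270). When 1 library was left out, crabp2a and rxraa each stayed called only without ZMELR1 replicate 3, and the adjusted p reached 0.133 for crabp2a and 0.0997 for rxraa. With limma-voom crabp2a had an adjusted p of 0.0613, and over all alternative fits it lay between 7.7e-09 and 0.133. With the block 8 genes of the list were called higher and 2 lower. In the list of Cdx, Evx and other regulators, 2 of 11 genes were called higher and 0 lower, with 3 higher and 0 lower at an unadjusted p under 0.05, 3 higher and 0 lower by DESeq2 and 2 higher and 0 lower by limma-voom. The genes called by edgeR were evx1 and tshz1, a teashirt zinc finger gene, with a mean of 114 CPM in ZMELR1 and 44.4 CPM in ZMEL1 (log2 fold change 1.36, adjusted p = 0.00995). The call of tshz1 was lost only without ZMEL1 replicate 1, at 0.0567, in the range of 3.6e-07 to 0.0567 over its alternative fits. The block gave 4 higher and 1 lower in this list. The medians of the log2 fold change were 0.07 in the Polycomb list, 0.31 in the Trithorax list, 0.03 in the retinoic acid list and 0.07 in the last list, against 0.02 over all genes tested.

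The gene evx1, an even-skipped homeobox gene needed for fin ray joints in zebrafish, lies next to hoxa13a at the posterior end of hoxaa. Its level was 1.83, 1.88 and 1.66 CPM in ZMELR1, against 0.153, 0.114 and 0.157 CPM in ZMEL1, with a log2 fold change of 3.65 ± 0.31 (SE, adjusted p = 0.00223). The call held in all 16 alternative fits that tested evx1. The groups did not overlap, and the ZMEL1 values rested on 9, 8 and 11 counts. Because evx1 lay beside a called Hox gene, the 5 nearest genes at each end of each cluster were also read, a choice made after their values were seen. Of 51 such genes tested, 4 were called higher, evx1 among them, and 7 lower, against 3.62% and 2.68% of all genes tested, and with the block 9 were called higher and 11 lower, against 12.9% and 12.0%. At the anterior end of hoxaa, next to hoxa1a, 3 of 4 tested neighbors were called lower. The nearest, snx10a, had 4, 5 and 0 counts in ZMELR1, against 41, 46 and 40 in ZMEL1 (adjusted p = 0.00909). The next, cbx3a, which encodes a heterochromatin protein, had 714, 670.1 and 547 CPM in ZMELR1, against 1954, 1631 and 1044 CPM in ZMEL1 (log2 fold change -1.26 ± 0.27 SE, adjusted p = 0.0420). The third, nfe2l3, had 218, 269.7 and 316 CPM in ZMELR1, against 534, 589 and 431 CPM in ZMEL1 (log2 fold change -0.95 ± 0.21 SE, adjusted p = 0.0425). When 1 library was left out, snx10a stayed called each time, cbx3a only without ZMEL1 replicate 3 and nfe2l3 only without ZMELR1 replicate 3, with adjusted p of up to 0.129 for cbx3a and 0.142 for nfe2l3. At the posterior end, the 3 tested genes beyond evx1, namely hibadha, tax1bp1a and jazf1a, were not called, with adjusted p between 0.133 and 0.633. Neighbors of other clusters were also called, 1 higher beside hoxab, 1 higher and 1 lower beside each of hoxbb and hoxcb, and 2 lower beside hoxda. Of these, tax1bp1b (hoxab), psme3 (hoxbb), calcoco1b (hoxcb) and pde11a (hoxda) were called in 0 of the 6 fits that left out 1 library. The call held in 2 of these 6 fits for si:ch211-222f23.6 (hoxda), in 5 for arl4d (hoxbb) and in 6 for zgc:174719 (hoxcb).

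**Figure D5:**
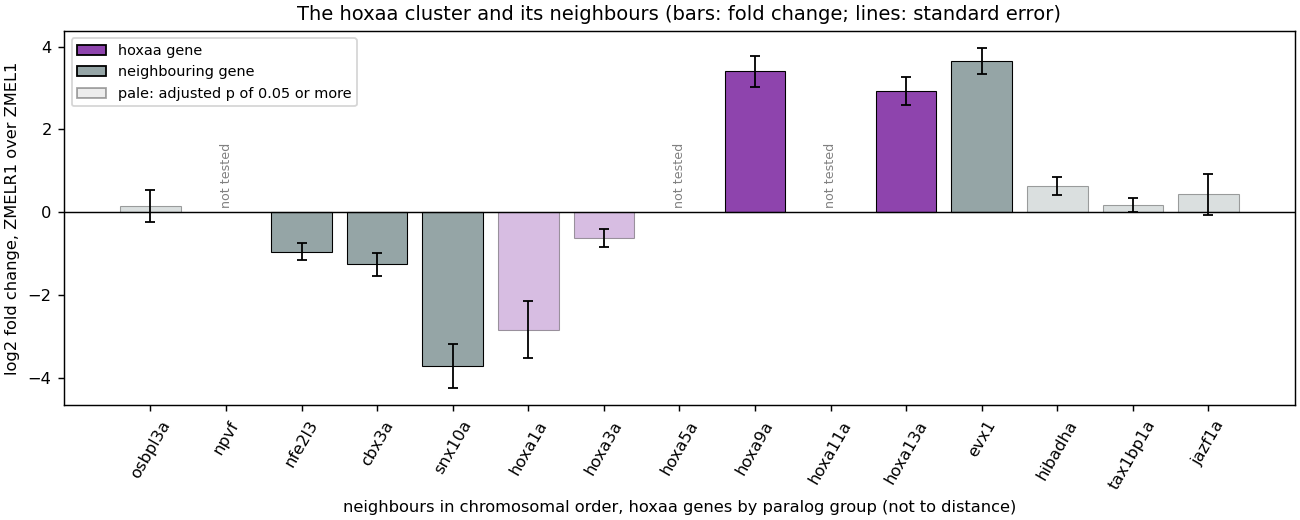
Log2 fold change (ZMELR1 over ZMEL1, lines SE) of the hoxaa genes (purple, by paralog group) and their neighbors in the table (grey, in chromosomal order), not drawn to distance. Full color marks an adjusted p under 0.05. On the hoxa1a side nfe2l3, cbx3a and snx10a lie below 0, whereas osbpl3a, which was not called, lies above it. The genes hoxa9a, hoxa13a and evx1 lie above 0.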

How the data were processed

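RNA from 3 ZMELR1 and 3 ZMEL1 libraries was compared. The authors aligned TruSeq reads to Zv9 with TopHat2, and the deposited values are raw HTSeq counts per gene name. Whether counting used strand is not given in the sources used here. Counts (42591832 to 83741911 per library) were analysed in R 4.3.3 with edgeR 4.0.16: filterByExpr (least count 10, least total 15), TMM factors, a quasi-likelihood F test, and p-values over 16589 genes adjusted by Benjamini-Hochberg. The fit was also run on simulated counts. These had no deviations shared by replicate number, so that run does not bear on the pairing of these libraries. DESeq2 1.42.0, limma-voom 3.58.1, other scalings, filters and left-out libraries were alternatives. Same-numbered libraries of the lines correlated at 0.557, 0.588 and 0.509 in their deviations from line means, and differently numbered ones at -0.504 to -0.0285. The deviations within a line cancel out by construction, so positive same-numbered values make the others negative on average. The block used the replicate numbers of the sample titles. Neither the labels nor the methods state that same-numbered libraries are paired. This correlation, from the same data, is the only ground for reading them as pairs. The Hox genes, lists and tests were chosen with earlier results of these data known. Named were Hox genes on in a line or called, and up to 4 called genes per list and direction. Named after their values were seen were pbx2, pbx4, the marker genes, the neighboring genes and the off genes hoxa5a, hoxa11a, hoxb1a, hoxb5b, hoxc13b and hoxd13a. Gene order, neighbors and overlapping spans came from the coordinates of protein-coding RefSeq genes of GRCz12tu, a later build than Zv9. The coordinates themselves are not printed. Overlap in the annotation used for counting was not examined.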

Additional observations from a re-analysis of the deposited data

How the results depend on the processing

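The calls of hoxa9a and hoxa13a held in every alternative run. Hox genes called higher numbered 4 of 32 tested, and 2 to 5 when 1 library was left out. They numbered 9 of 32 with the replicate block and 16 of 33 with the block and without replicate 3 of both lines. Hox genes called lower numbered 0, and 0 to 1 when 1 library was left out, 1 with DESeq2, 2 with the block and 1 without replicate 3 of both lines. With the block and without replicate 3 of both lines, 6 of 33 were called lower. The block removed no Hox call, and the Hox and list calls it added are counted above, as are those of the neighboring genes. Over all 16589 genes tested, 600 were called higher and 444 lower, against 1188 and 1091 of 19585 with DESeq2. With at least 10 counts in every library it was 294 and 169 of 14605. The block gave 2141 and 1984 of 16589, and the block without replicate 3 of both lines 3935 and 4394 of 16669. Leaving out 1 library gave 172 to 661 higher and 112 to 488 lower. With at least 10 counts in every library, hoxa10b had an adjusted p of 0.0587. Genes on in ZMELR1 only numbered 6, and 2 at 0.5 CPM, 2 at 2 CPM and 3 where every library had to reach 1 CPM. Genes on in ZMEL1 only numbered 1, 0 at 2 CPM and 0 where every library had to reach 1 CPM, and 0 to 1 when 1 library was left out. Genes with fold changes near 0 changed sign. Without replicate 3 of both lines, first without and then with the block, log2 fold changes were -0.084 and -0.095 for hoxb7a, -0.054 and -0.061 for hoxc8a, -0.048 and -0.046 for hoxc11a, 0.23 and 0.23 for hoxc12a and -0.095 and -0.099 for hoxd3a. For hoxc12a it was also 0.026 with limma-voom and 0.027 with the block. Leaving out 1 library gave log2 fold changes of -0.078 to 0.17 for hoxc11a, -0.20 to 0.25 for hoxc12a and -0.044 to 0.17 for hoxd3a. The causes of these changes were not tested. CPM per kilobase of coding length was not run. Counts were low for hoxa5a, hoxd13a and 13 of the B cluster genes, which did not pass the filter, and for hoxa11a, which was lower at an adjusted p of 0.0101 with the block and without replicate 3 of both lines and at 0.0672 to 0.324 in the 7 other alternatives that tested it.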
